A study of Mus musculus with 67 samples.

Results

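RNA was compared between mouse Ly6C+ monocytes of the bone marrow before transfer and the transferred cells recovered from the blood of host mice 24 h later. The comparison holds 4 of the 67 libraries of the series, 2 pretransfer (A and B) and 2 blood grafts (AC and B), chosen by their labels, and covers all 24421 genes listed. Pretransfer cells came from the marrow of C57BL/6 mice of 8 weeks, which was crushed and enriched for CD115, the receptor for colony-stimulating factor 1, on magnetic beads without ACK, a buffer that lyses red cells, before flow sorting. The grafted cells carry the same strain and age in the labels and were sorted from blood after ficoll, a density step, with no bead enrichment named. Transfer, tissue and cell preparation therefore cannot be told apart in this comparison. The other groups used below are the grafts recovered from spleen at 24 h (sorted after ACK), the blood grafts at 36 h and 48 h, and the Ly6C+, Ly6Cint and Ly6C- monocytes that belonged to the hosts at 24 h (C57BL/6, 8 weeks, n = 2 each). Unmanipulated C57BL/6 mice of 7 weeks gave further libraries of marrow Ly6C+ (n = 3), blood Ly6C+ (n = 4) and blood Ly6C- monocytes (n = 3). The labels give neither the mark that separated grafted from host cells, nor the number of mice, nor the meaning of the letters AC, and no knockout or drug is named for any of these groups. Because separate mice are not named for the replicates, a p-value here measures the spread between libraries, which may be technical.

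Classical monocytes, which carry the surface antigen Ly6C at a high level, are made in the marrow from dividing progenitors, enter the blood through the chemokine receptor Ccr2 and live there for a short time. Part of them turns into patrolling Ly6C- monocytes, which crawl along the vessel wall and depend on the nuclear receptor Nr4a1. The transcription factor C/EBPb, encoded by Cebpb, is named in the title of the series as a requirement of the Ly6C- cells.

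Markers of monocytes were present in both groups. Summed over 10 monocyte markers, the level was 21229 and 21797 RPM (recovered reads of a gene scaled by all reads on listed genes) before transfer and 19445 and 20690 RPM in the grafts, and none of the 10 was at 0 in either group. Lyz2 made up most of each sum, at 12074 and 12960 RPM before transfer and 13208 and 14601 RPM in the grafts. Of the same 10, Ly6c2 and Ccr2 were lower in the grafts, and Csf1r, Spi1 and Cx3cr1 were higher. Pretransfer libraries held 2281979 and 1783720 reads on genes and the grafts 736808 and 744952, so that 1 read was worth 0.438 and 0.561 RPM before transfer against 1.36 and 1.34 RPM in the grafts. The grafts also held fewer genes above 0, 8278 and 8109 against 11719 and 11574. At the depth of the smallest transfer library, 502661 reads, the expected numbers were 8120 and 7962 against 10472 and 10518, so the gap remained at equal depth. Across genes, which are not independent replicates, Pearson's r of log2 levels was 0.98 between the pretransfer libraries and 0.80 between the grafts. In the transfer table the tested set was 12032 genes, with the spread per gene shared over all 26 libraries. Genes are said to have risen or fallen where limma's moderated test gave a Benjamini-Hochberg adjusted p below 0.05 over all genes tested, and log2 ratios are differences of mean log2(RPM + 1), given with the SE and n = 2 per group.

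In the blood grafts of 24 h most transcripts of mitosis and of the marrow granule enzymes were lower than before transfer, part of those that define Ly6C+ monocytes were lower, and most of those that define Ly6C- monocytes were higher. In all, 1605 genes passed the test (13.3%), 362 higher in the grafts (3.01%) and 1243 lower (10.3%). On the log2(RPM + 1) scale, 79 of the risen and 686 of the fallen genes were at 8-fold or more. Where the grafts had no read, that size is set in part by the added 1 RPM. For Flt3 the log2 ratio was -3.79, whereas its reads show a fall of at least 6.44-fold. edgeR also called 356 of the risen and 657 of the fallen genes. Of the genes that fell, 561 had no read in either graft. Among all 12032 genes tested, 2809 had no read in either graft and 607 had none in either pretransfer library. The 3 reads taken as the floor of a group were worth 2.02 RPM in the grafts and 0.738 RPM before transfer. The balance of directions followed the level of the genes. Among the 2117 genes at 100 RPM or more over both groups, 225 rose and 216 fell, and their median log2 ratio was -0.11, against -0.54 for all genes tested. Both grafts lay above both pretransfer libraries at 1624 genes (13.5%) and below them at 5048 (42.0%). The calls rested on all 4 libraries. Fewer genes passed without either pretransfer library, and without either graft many calls were lost while others were gained. The median log2 ratio of all genes was -0.55 without pretransfer A, -0.52 without pretransfer B, -0.47 without graft AC and -0.45 without graft B. The split of 362 higher and 1243 lower moved to 436 and 765 with quantile scaling and to 448 and 672 with edgeR on the recovered reads, and the median of all genes moved to -0.21 and -0.29.

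**Figure D1:**
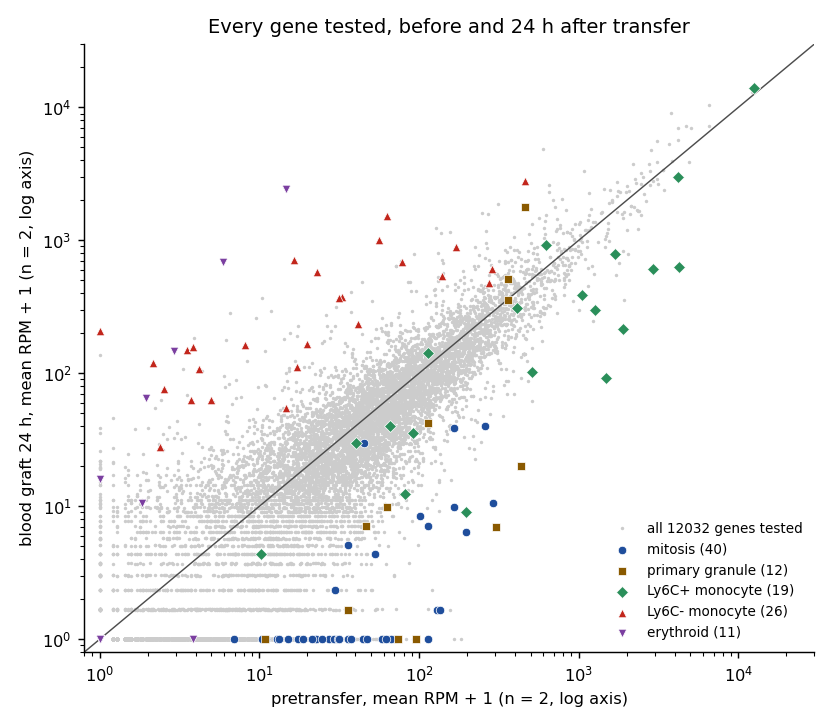
Mean level of each of the 12032 genes tested before transfer (x axis, RPM + 1, log scale) and in blood grafts at 24 h (y axis, RPM + 1, log scale), with the members of 5 gene lists in colour and the diagonal marking equal levels. Mitosis genes lie below the diagonal, many of them at 0 in the grafts, and the 26 genes of Ly6C- monocytes lie above it.

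Genes of cell division made up the most complete loss. Of 40 genes of mitosis, 37 fell and 0 rose, with a median log2 ratio of -4.68, or -3.93 with the 27 genes at 0 in both grafts placed at their bound, and all 3 that did not pass were below 0. Ccna2, the cyclin of S phase and G2, was at 131 and 94.7 RPM before transfer and had no read in either graft, a level at least 56.9-fold lower. Cdca3, which promotes entry into mitosis, went from 172 and 156 RPM to no read (at least 81.5-fold lower). Tpx2, a spindle assembly factor, stood at 81.9 and 59.4 RPM and then at 0 in both grafts (at least 35.6-fold lower). Thus every pretransfer library held these transcripts and no graft held a read of them. Mki67, the source of the proliferation antigen Ki-67, was at 184 and 205 RPM before transfer and at 10.9 and 0 RPM in the grafts, the groups apart by a log2 ratio of -5.83 ± 1.27 (adjusted p = 0.00347), a call that was lost without graft B. Racgap1, needed for the last step of cell division, kept some reads, with 184 and 147 RPM before transfer and 13.6 and 4.03 RPM after it (log2 ratio -4.27 ± 0.61, adjusted p = 5.52e-05). Summed over the 40 genes, the level was 2795 and 2434 RPM before transfer and 198 and 109 RPM in the grafts, against 303 and 196 RPM in host Ly6C+ monocytes of the same blood. edgeR called 23 of the 40 lower.

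DNA replication genes showed the same direction over a smaller part of the list. Here 26 of 40 fell and 0 rose (median log2 ratio -3.90, or -3.45 with the 12 genes at 0 in both grafts at their bound), a count that dropped to 11 without pretransfer A and to 10 without pretransfer B. Ccne1 and Ccne2 encode the E cyclins that start S phase. Ccne1 was at 35.5 and 35.9 RPM before transfer and at 0 in both grafts (at least 17.6-fold lower), and Ccne2 at 37.7 and 44.3 RPM and then at 0 (at least 20-fold lower). Mcm10 and Uhrf1, which act in origin firing and in copying DNA methylation, were likewise at 0 in both grafts, from 29.8 and 24.1 RPM and from 28 and 31.4 RPM. None of these 4 genes had a read in either graft, so only the lower bounds of their folds are known.

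The promoters of the mitosis genes share short sequence elements that the choice of the list did not use. Promoter windows (RefSeq, GRCm38.p6, 250 bases before to 50 bases after the start) were matched for 9562 of the 12032 genes and searched on both strands. The cell cycle homology region, spelled TTTGAA, occurred in 71.4% of the 35 mitosis genes matched, against 14.6% of all genes matched and 12.5% of the 32 DNA replication genes. A CCAAT box occurred in 74.3% of the mitosis genes and in 43.2% of all. Of the mitosis genes that fell, 10 hold both elements before the start, and 5 of them are printed to show how the elements lie together. The stretches run 5′ to 3′ along the gene's strand, with matches to either element in capitals (ATTGG and TTCAAA are the same elements on the opposite strand). They lie at chr7:135716462-135716577 (minus strand) for Mki67, chr17:24251410-24251566 (minus strand) for Ccnf, chr4:118437344-118437406 (minus strand) for Cdc20, chr7:80294404-80294461 (plus strand) for Prc1 and chr19:37376327-37376378 (plus strand) for Kif11.
Mki67: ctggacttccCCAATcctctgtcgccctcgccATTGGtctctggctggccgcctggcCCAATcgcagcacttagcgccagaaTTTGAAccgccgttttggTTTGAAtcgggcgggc
Ccnf: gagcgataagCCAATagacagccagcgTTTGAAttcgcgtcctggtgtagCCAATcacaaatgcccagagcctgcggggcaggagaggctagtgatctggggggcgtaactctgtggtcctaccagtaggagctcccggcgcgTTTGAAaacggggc
Cdc20: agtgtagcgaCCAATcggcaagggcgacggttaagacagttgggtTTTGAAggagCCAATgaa
Prc1: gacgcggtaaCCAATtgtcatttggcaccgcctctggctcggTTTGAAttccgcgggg
Kif11: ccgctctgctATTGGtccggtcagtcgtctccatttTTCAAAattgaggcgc
A match is a run of letters and not a site shown to be bound. Ccnf, a cyclin that acts in G2, had 25 and 18.5 RPM before transfer and no read in the grafts (at least 10.9-fold lower), and its call was lost with edgeR.

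Most transcripts of the primary granule list were lower in the grafts as well. Its summed level was not, at 2359.4 and 2344.5 RPM before transfer and 2941.1 and 2510.2 RPM in the grafts. Primary granules are filled with serine proteases and peroxidase during marrow development, and of 12 genes tested 8 fell and 1 rose (median log2 ratio -3.62, or -3.37 with the 3 tested genes at 0 in both grafts at their bound). Elane, neutrophil elastase, was at 93.8 and 95.9 RPM before transfer and at 0 in both grafts (at least 46.8-fold lower). Ctsg, cathepsin G, went from 77.6 and 69.0 RPM to 0 (at least 36.4-fold lower), and Prtn3, proteinase 3, from 308 and 297 RPM to 0 and 12.1 RPM (log2 ratio -6.39 ± 1.26, adjusted p = 0.00148). Slpi, an inhibitor of neutrophil elastase and cathepsin G, fell from 431 and 441 RPM to 25.8 and 12.1 RPM (log2 ratio -4.54 ± 0.67, adjusted p = 7.58e-05). The granule protease genes were thus present in each pretransfer library and at or near 0 in each graft. Srgn went the other way. It encodes the proteoglycan core on which granule proteins are packed, and its level was 465 and 452 RPM before transfer and 2125 and 1434 RPM in the grafts (log2 ratio 1.93 ± 0.25, adjusted p = 1.47e-05). The number that fell was 5 without pretransfer A, without pretransfer B or without graft B, and 4 with edgeR. Of 13 progenitor genes tested, Myb and Flt3 fell and 0 rose, a share near the 10.3% of all genes called lower, and the list summed to 786 and 773 RPM before transfer and to 821 and 634 RPM in the grafts. The call on Myb, a transcription factor of blood progenitors, was lost with edgeR (adjusted p = 0.12). Flt3, the receptor for the dendritic cell growth factor Flt3 ligand, had 14.0 and 11.8 RPM before transfer and no read in the grafts (at least 6.44-fold lower), a call that was lost without either pretransfer library.

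Genes of Ly6C- monocytes rose almost without exception, 25 of 26 tested, with a median log2 ratio of 3.60. The list was chosen with earlier results of these data known, so this count is a description. The exception was Pecam1, an adhesion molecule of vessel walls and leukocytes, named here because it fell outside the rule for names (9.64 and 17.9 RPM before transfer, 77.4 and 30.9 RPM in the grafts, log2 ratio 1.82 ± 0.77, adjusted p = 0.123). Nr4a1, on which these cells depend, was at 55.2 and 55.5 RPM before transfer and at 977 and 1040 RPM in the grafts, a log2 ratio of 4.16 ± 0.24 (adjusted p = 1.28e-10). Cd300e, an activating receptor of monocytes, had no read in either pretransfer library and 265 and 150 RPM in the grafts, at least 281-fold higher. Ace, angiotensin-converting enzyme, was at 59.2 and 64.5 RPM and then at 1703 and 1320 RPM (log2 ratio 4.58 ± 0.22, adjusted p = 1.32e-11). In each of these 3 genes the groups were more than 10-fold apart and far from overlapping. Treml4, a receptor that binds dead cells, was at 20.6 and 23.5 RPM before transfer and at 531 and 622 RPM after it (log2 ratio 4.64 ± 0.29, adjusted p = 5.06e-10). Eno3, a muscle form of the glycolytic enzyme enolase, went from 14.9 and 16.3 RPM to 628 and 801 RPM (log2 ratio 5.42 ± 0.33, adjusted p = 3.42e-10). Fabp4, a fatty acid carrier, and Cd36, a scavenger receptor for lipids, rose with it, Fabp4 from 1.75 and 3.92 RPM to 205 and 109 RPM and Cd36 from 2.63 and 2.80 RPM to 93.6 and 30.9 RPM. Graft AC stood above graft B in both of these lipid genes. Dusp16, a phosphatase of stress kinases, rose from 1.75 and 0.561 RPM to 132 and 106 RPM (log2 ratio 5.85 ± 0.46). Cx3cr1, the fractalkine receptor that is already present on Ly6C+ monocytes, moved the least of the list, from 266 and 278 RPM to 467 and 490 RPM (log2 ratio 0.81 ± 0.17, adjusted p = 0.00239). Tgm3, a transglutaminase outside the list, was among the 12 largest rises, with no read before transfer and 124 and 149 RPM in the grafts (at least 185-fold higher). The list kept 23 to 25 calls under each alternative processing and each omission of a library.

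The rise did not carry the summed level of the list in the grafts to that of resident Ly6C- cells at 24 h. Summed over the 26 genes, the level was 1706 and 1768 RPM before transfer, 12660 and 11798 RPM in blood grafts at 24 h, 15281 and 15989 RPM at 36 h and 19823 and 16992 RPM at 48 h, with 20493 and 20866 RPM in host Ly6C- monocytes. The later grafts and the host Ly6C- cells are given as levels only, and single members differed. Treml4 was at 531 and 622 RPM in the 24 h grafts and at 507 and 659 RPM in host Ly6C- cells. Cd300e was at 265 and 150 RPM in the 24 h grafts and at 930 and 1111 RPM in host Ly6C- cells.

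Markers of Ly6C+ monocytes fell in part. Of 19 genes 9 fell, 1 rose and 9 did not pass (median log2 ratio -1.88), and 5 fell without either pretransfer library. Ly6c2, which encodes the sorting antigen itself, was at 4437 and 4010 RPM before transfer and at 487 and 781 RPM in the grafts (log2 ratio -2.77 ± 0.44, adjusted p = 0.000177). Ccr2 went from 1202 and 1332 RPM to 267 and 330 RPM (log2 ratio -2.09 ± 0.46, adjusted p = 0.00359). F13a1, a clotting factor subunit, fell from 1990 and 1780 RPM to 223 and 207 RPM, and Chil3, a chitinase-like protein of inflammatory monocytes, from 3028 and 2800 RPM to 605 and 607 RPM. Both grafts lay below both pretransfer libraries in each of these 4 genes and still held each transcript at 207 RPM or more. Reads of Ly6c2 and its near copy Ly6c1 may have been shared, in a way the sources used here do not state. Lyz2, lysozyme, did not pass and was at 12074 and 12960 RPM before transfer and at 13208 and 14601 RPM after it (adjusted p = 0.689). In bulk RNA, fewer cells with a transcript and less of it per cell cannot be told apart.

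**Figure D2:**
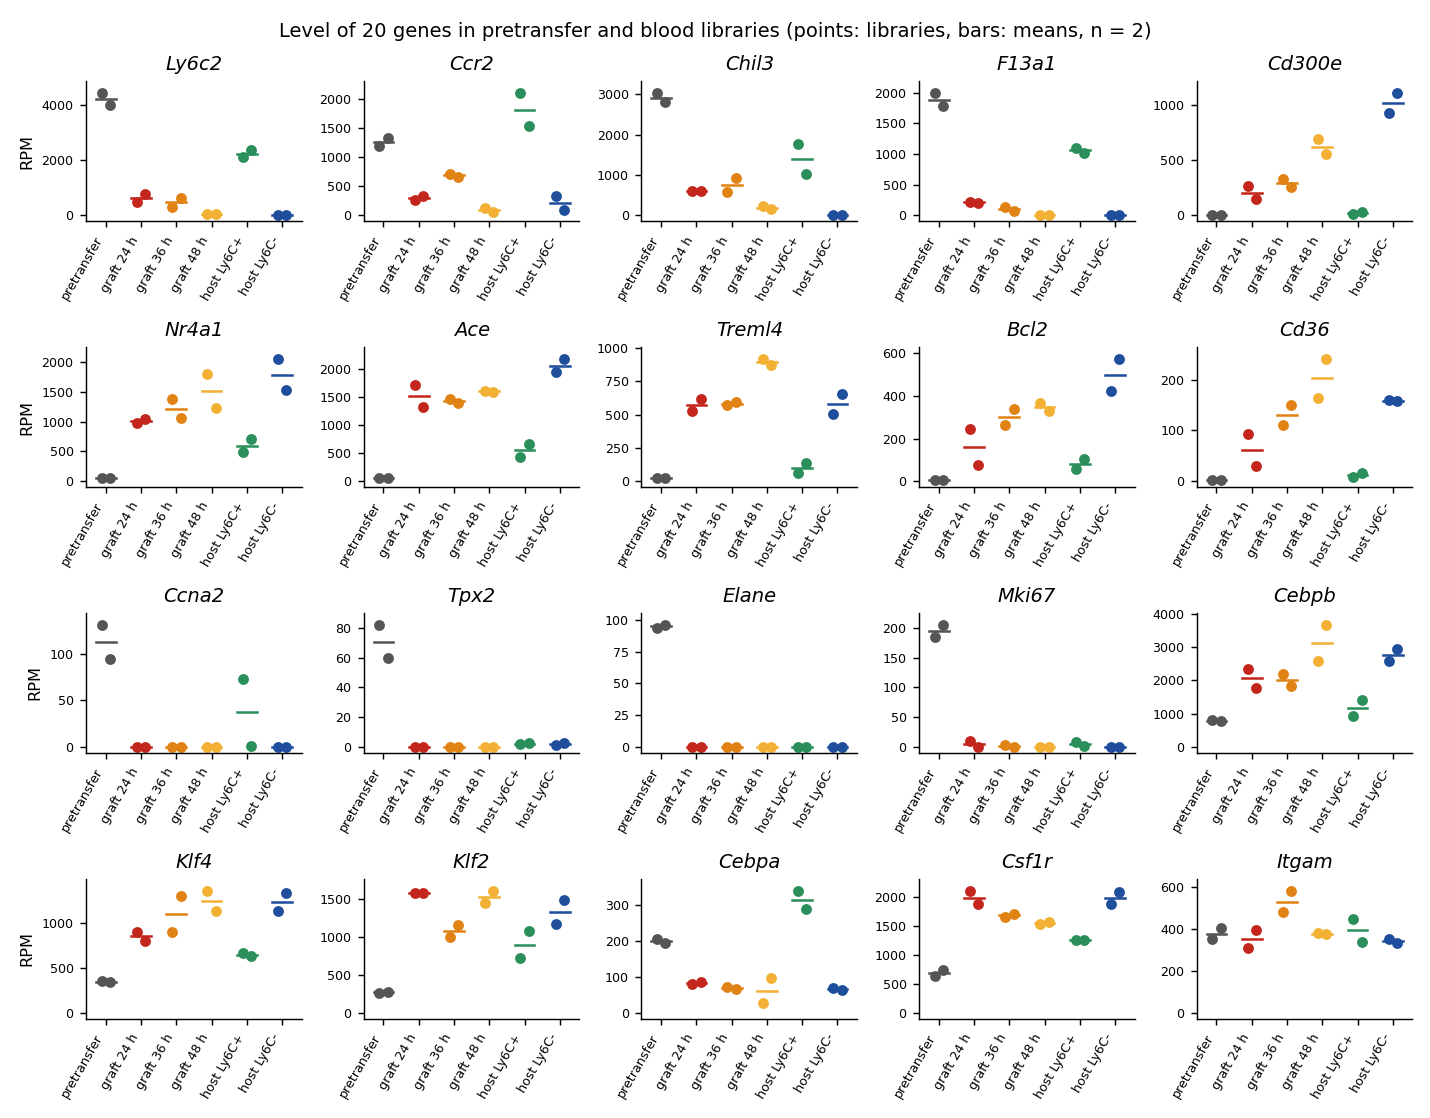
Level of 20 genes (y axis, RPM, scale set per gene) in each library of pretransfer cells, blood grafts at 24, 36 and 48 h and host Ly6C+ and Ly6C- monocytes, with points for libraries and bars for means of 2. Nr4a1, Ace and Treml4 lie apart from the pretransfer libraries in every graft, while Elane is at 0 in all libraries after transfer.

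Among 39 transcription factors of monocytes 13 rose and 5 fell, against 3.01% of all genes called higher and 10.3% called lower. The falls were thus near the background. Cebpb was at 805 and 776 RPM before transfer and at 2356 and 1767 RPM in the grafts, both grafts above both pretransfer libraries, with a log2 ratio of 1.37 ± 0.20 (adjusted p = 5.71e-05). Its relatives fell: Cebpa from 206 and 194 RPM to 80.1 and 85.9 RPM (log2 ratio -1.26 ± 0.41, adjusted p = 0.0455) and Cebpd from 419 and 380 RPM to 208 and 161 RPM (log2 ratio -1.12 ± 0.26, adjusted p = 0.00502). The call on Cebpa was lost under 8 of 13 alternatives, its adjusted p reaching 0.214, whereas that on Cebpd was lost only without pretransfer A. Cebpe, the C/EBP factor of late granulocytes, was at 29.8 and 29.7 RPM and then at 0 in both grafts. The family thus split, with Cebpb higher and 3 other members lower. Klf2, a factor of quiescence and flow sensing, rose from 268 and 274 RPM to 1574 and 1584 RPM (log2 ratio 2.54 ± 0.20), and Klf4, needed for monocyte formation, from 349 and 338 RPM to 898 and 797 RPM (log2 ratio 1.30 ± 0.24). Pou2f2, a POU factor of lymphoid and myeloid cells, had 294 and 327 RPM before transfer and 1764 and 2000 RPM in the grafts (log2 ratio 2.59 ± 0.15, adjusted p = 1.14e-10). The receptors Pparg and Nr1h3, which sense fatty acids and sterols, were at 5 RPM or less before transfer and at 73.3 and 49.7 RPM and 74.6 and 33.6 RPM in the grafts. Spi1, the PU.1 factor of all myeloid cells, rose from 643 and 582 RPM to 1281 and 952 RPM (adjusted p = 0.0133), a call lost under 6 of 13 alternatives that included leaving out graft AC or either pretransfer library. Irf8, which drives monocytes and dendritic cells, was at 857 and 817 RPM and then at 599 and 475 RPM and did not pass (log2 ratio -0.65 ± 0.24, adjusted p = 0.0811). The 5 factors that fell became 2 without pretransfer A and 3 without pretransfer B. Promoters of the risen genes held the Nr4a element AAAGGTCA in 1.46% of 274 genes matched and the C/EBP element TTGCNNCAA in 1.82%, against 1.19% and 1.81% of all genes matched.

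Immediate early genes, which are switched on within minutes by signals and by handling of cells, rose at 12 of 25 tested and fell at 0, against a background of 3.01% called higher (median log2 ratio 0.92). Jun was at 35.5 and 49.9 RPM before transfer and at 352 and 617 RPM in the grafts (log2 ratio 3.44 ± 0.31, adjusted p = 1.44e-07). Fos, its partner in the AP-1 factor, went from 89.4 and 95.9 RPM to 567 and 999 RPM (log2 ratio 3.01 ± 0.37), Junb from 279 and 244 RPM to 1053 and 867 RPM (log2 ratio 1.87 ± 0.18) and Dusp2, a phosphatase of MAP kinases, from 9.20 and 7.85 RPM to 357 and 160 RPM (log2 ratio 4.66 ± 0.44). No value of the grafts overlapped the pretransfer range in these 4 genes. The summed level of the list was 1869 and 1837 RPM before transfer, 6311 and 6913 RPM in the blood grafts, 7058 and 5989 RPM in host Ly6C+ monocytes prepared from blood in the same way, and 3922 and 2610 RPM in grafts from spleen. Heat shock genes, 3 of 14 higher and 0 lower, held the pair Hspa1a and Hspa1b, which encode the inducible chaperone Hsp70. Hspa1b was at 6.57 and 4.49 RPM and then at 286 and 282 RPM (log2 ratio 5.47 ± 0.69, adjusted p = 1.33e-05), and as the pair is nearly identical, the division of reads between its members is uncertain. Summed over the list, heat shock genes were at 3871 and 3884 RPM in the grafts against 2080 and 2104 RPM before transfer and 1893 and 2088 RPM in host Ly6C+ cells. The part of handling in these values was not tested.

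Interferon-stimulated genes fell at a few members only. Of 40 tested 7 fell and 0 rose, a share of the list above the 10.3% of all genes, but the median log2 ratio was -0.52 against -0.54 over all genes. Cxcl10, a chemokine for T cells, was at 86.8 and 95.9 RPM before transfer and at 0 in both grafts (at least 44.8-fold lower). Cmpk2, a mitochondrial nucleotide kinase, fell from 106 and 73.4 RPM to 14.9 and 14.8 RPM (log2 ratio -2.49 ± 0.40, adjusted p = 0.000189), and Stat2, a subunit of the factor that type I interferon activates, from 223 and 293 RPM to 27.1 and 103 RPM (log2 ratio -2.24 ± 0.46, adjusted p = 0.00202). The call on Stat2 was lost without graft AC (log2 ratio -1.30) and with the 4 libraries alone (adjusted p = 0.149). Ifit2, which binds viral RNA, had 41.2 and 44.3 RPM before transfer and 1 read in the grafts. The grafts differed in this list, with summed levels of 6724 RPM in graft AC and 10711 RPM in graft B against 10029 and 10061 RPM before transfer. The number of members lower was 3 without graft AC, 13 without graft B, and 4 without either pretransfer library. The interferon-stimulated response element was found in 46.7% of the 30 promoters of this list that were matched and in 4.02% of all. It lies before the start of 3 genes that fell, printed with the element in capitals. As 14 genes of the list held the element and 7 fell, genes that did not fall held it too. A link between the element and the fall was not tested. The stretches are at chr5:92349083-92349112 (minus strand) for Cxcl10, chr19:34583363-34583426 (plus strand) for Ifit3 and chr10:128270266-128270295 (plus strand) for Stat2 (RefSeq, GRCm38.p6).
Cxcl10: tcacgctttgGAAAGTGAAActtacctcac
Ifit3: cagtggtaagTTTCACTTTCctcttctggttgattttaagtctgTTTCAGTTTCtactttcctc
Stat2: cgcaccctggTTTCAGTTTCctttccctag
In Ifit3 and Stat2 the element reads on the opposite strand. Ifit3, another binder of viral RNA, was at 92.5 and 84.7 RPM before transfer and at 0 and 34.9 RPM in the grafts (log2 ratio -3.90, adjusted p = 0.034).

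Among inflammatory and antigen presentation genes a few members rose. Of 26 NF-kappaB targets 5 rose and 2 fell, against 3.01% of all genes called higher and 10.3% called lower. Il1b, interleukin 1 beta, was at 5.70 and 8.97 RPM before transfer and at 208 and 38.9 RPM in the grafts (log2 ratio 3.48 ± 0.57, adjusted p = 0.000242), the 2 grafts lying more than 5-fold apart. Ccl2, the ligand of Ccr2, was at 17.5 and 19.1 RPM and then at 0 in both grafts (at least 8.99-fold lower). The list held 3 risen genes without graft AC or without either pretransfer library, and 8 with edgeR. In MHC class II, whose proteins present peptides to CD4+ T cells, the 4 genes H2-Aa, H2-Ab1, H2-Eb1 and Cd74 rose among 20 genes of the list. Cd74, the invariant chain, went from 559 and 642 RPM to 6740 and 2940 RPM (log2 ratio 2.89 ± 0.36, adjusted p = 1.17e-05), and H2-Aa from 235 and 262 RPM to 2207 and 999 RPM (log2 ratio 2.57 ± 0.41). Graft AC was above graft B in each of these 4 genes. Other members of the list, H2-DMa, H2-DMb1, H2-DMb2, H2-Oa and Ciita, did not pass. Their log2 ratios were -0.37, 0.13, 1.56, -0.33 and 1.13. The dendritic cell genes Flt3 and Cd86 of the same list fell, a share of the list near the background, and neither passed when a pretransfer library was left out.

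Of 25 apoptosis regulators 6 rose and 3 fell, against 3.01% of all genes called higher and 10.3% called lower. The falls were thus near the background. Bcl2, which blocks the mitochondrial path of cell death, was at 7.45 and 6.73 RPM before transfer and at 246 and 77.9 RPM in the grafts (log2 ratio 4.11 ± 0.50, adjusted p = 9.13e-06). Its relatives Bcl2a1a, Bcl2a1b and Bcl2a1d rose too, Bcl2a1b from 3.94 and 6.17 RPM to 102 and 53.7 RPM, although these 3 copies are so alike that reads may have been shared among them. Bbc3 and Pmaip1, which promote death, also rose, with log2 ratios of 2.45 and 1.69, and the caspase gene Casp8 fell from 141 and 142 RPM to 25.8 and 34.9 RPM (log2 ratio -2.20). Of 30 receptors of adhesion and chemotaxis 7 rose and 4 fell, the falls again near the background. The integrin gene Itgal rose from 163 and 177 RPM to 988 and 796 RPM (log2 ratio 2.38 ± 0.25), Itgax from 2.19 and 2.80 RPM to 219 and 79.2 RPM (log2 ratio 5.25 ± 0.50) and S1pr5, a receptor for the lipid S1P that guides exit from the marrow, from 23.7 and 37.6 RPM to 388 and 344 RPM (log2 ratio 3.57 ± 0.44). Ccr1, a receptor for inflammatory chemokines, was at 58.3 and 68.4 RPM and then at 0 in both grafts. Itgam, the CD11b integrin chain, at 350 and 405 RPM and then 311 and 396 RPM, and Cxcr4, the receptor that holds cells in the marrow, at 106 and 117 RPM and then 174 and 92.6 RPM, overlapped between the groups (adjusted p = 0.840 and 0.887). Csf1r, the receptor behind the CD115 antigen used for enrichment before transfer only, rose from 640 and 748 RPM to 2112 and 1879 RPM (log2 ratio 1.52 ± 0.16, adjusted p = 1.47e-06). Among 25 complement and scavenger genes 3 rose and 2 fell, the falls again near the background. Cfp, properdin, was lower at 92.3 and 80.5 RPM against 450 and 518 RPM before transfer (log2 ratio -2.47 ± 0.49).

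Most members of the metabolic and ribosomal lists did not pass the test, and the list medians lay between -0.77 for ribosome biogenesis and 0.00 for cholesterol and fatty acid genes. All genes tested had a median of -0.54, with 3.01% called higher and 10.3% called lower. The falls in oxidative phosphorylation lay above that share, while those in glycolysis and ribosome biogenesis lay near it. Of 65 genes of oxidative phosphorylation 12 fell and 0 rose (median log2 ratio -0.48), and 3 fell without pretransfer A. Cox6a1, a subunit of the last respiratory complex, was at 1510 and 1424 RPM before transfer and at 803 and 981 RPM in the grafts (log2 ratio -0.72 ± 0.15, adjusted p = 0.00292). In glycolysis 2 of 22 rose and 3 fell, among them the hexokinase gene Hk3, from 193 and 215 RPM to 46.1 and 6.71 RPM (log2 ratio -3.42 ± 0.59). Of 71 cytosolic ribosomal proteins 5 rose and 2 fell (median log2 ratio -0.01), and many of them have retained copies that can share reads. Ribosome biogenesis held 3 lower of 28, all 3 of them lost with edgeR or without either pretransfer library. Of 32 lysosome genes 3 rose and 5 fell, with 1 and 0 left without either pretransfer library. Of 27 cholesterol and fatty acid genes Abcg1, an exporter of cholesterol, rose, from 63.5 and 58.3 RPM to 197 and 193 RPM (log2 ratio 1.66 ± 0.28, adjusted p = 0.000354), and 0 fell.

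**Figure D3:**
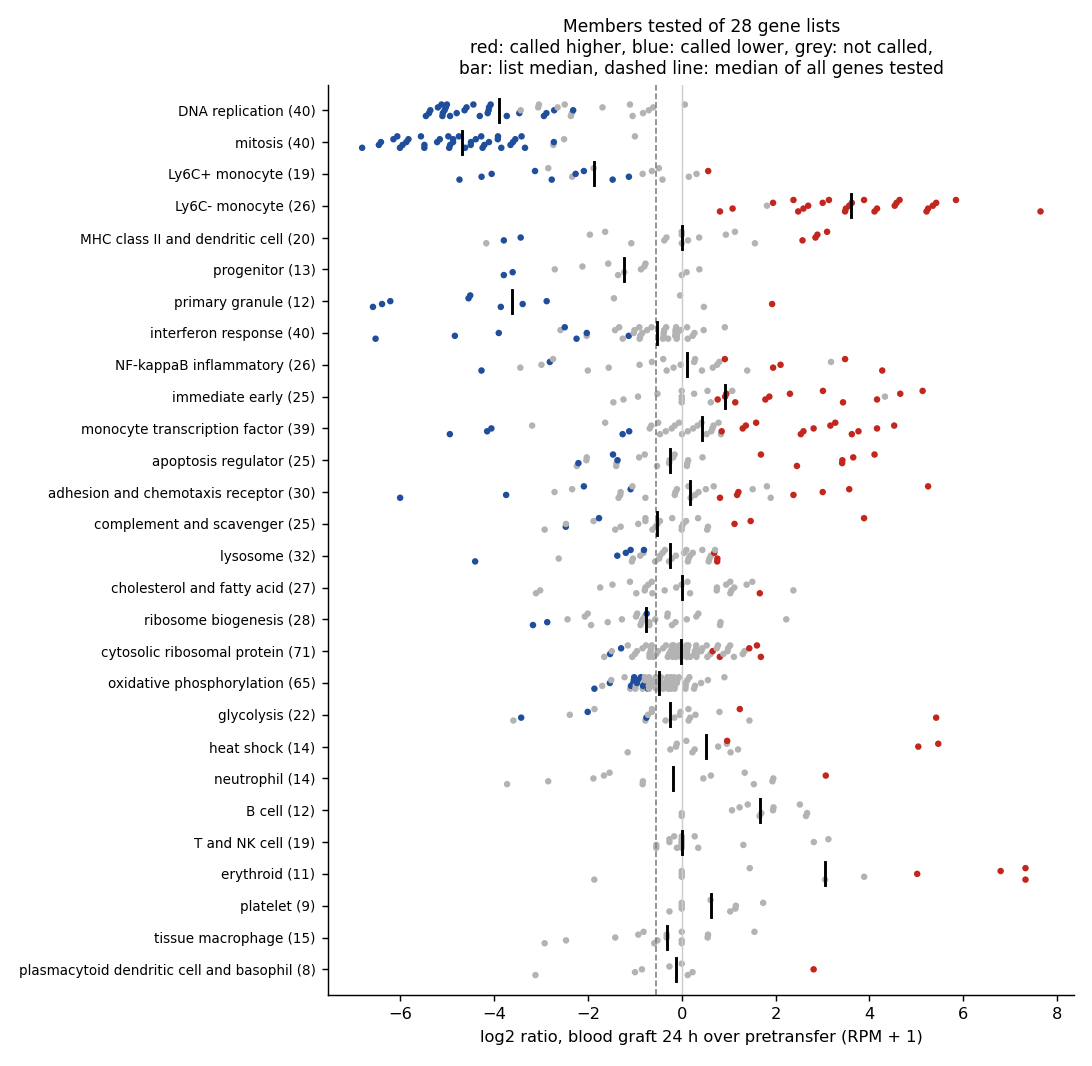
Log2 ratio of blood grafts at 24 h over pretransfer cells (x axis, on RPM + 1) for each tested member of 28 gene lists (rows, number tested in brackets), with the list median as a bar and the median of all genes as a dashed line. The mitosis list lies wholly below 0 and the Ly6C- list wholly above it, while the lists of lysosome, ribosome and energy metabolism centre near the dashed line or near 0.

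Transcripts of red cells were far higher in the grafts. Of 11 erythroid genes tested 4 rose, all of them globins. Hba-a1 and Hba-a2, which encode alpha globin and have near identical values, so that the division of reads between them is uncertain, stood at 16.7 and 10.7 RPM before transfer and at 1615 and 3281 RPM in the grafts for Hba-a1 (log2 ratio 7.33 ± 1.05, adjusted p = 5.58e-05). Klf1, a transcription factor that defines red cell precursors, was at 0 in all 4 libraries. Summed over the erythroid list, the level was 47.8 and 29.7 RPM before transfer, 3700 and 7921 RPM in blood grafts, 6983 and 3982 RPM in host Ly6C+ cells of the same blood, and 142 and 612 RPM in spleen grafts. The list was therefore high in grafted and host cells from blood alike and low in the marrow cells. For other cells the defining markers summed to 36.8 and 38.7 RPM before transfer and 66.5 and 149 RPM in the grafts for 5 B cell genes, of which Pax5 was at 0 in all 4 libraries. The sum of 6 T and NK cell genes was 1.31 and 1.12 RPM and then 0 and 76.5 RPM, almost all of it Lck at 75.2 RPM in graft B, with Cd3g and Klrb1c at 0 throughout. Neutrophil markers summed to 248 and 309 RPM and then to 414 and 277 RPM over 9 genes, with Csf3r at 284 and 258 RPM the largest part in the grafts. Limma called 0 of 12 B cell, 0 of 19 T and NK cell, 0 of 9 platelet and 0 of 15 tissue macrophage genes, with 3, 1, 0 and 2 at an unadjusted p below 0.05, and edgeR called 1, 1, 0 and 0. In the other lists of this kind 1 gene each rose, Ltf of 14 neutrophil genes (25.8 and 6.71 RPM in the grafts, log2 ratio 3.07, adjusted p = 0.00605, not called by edgeR) and Runx2, also a monocyte factor, of 8 genes of plasmacytoid dendritic cells and basophils. The part of such transcripts in the other lists was not tested.

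**Figure D4:**
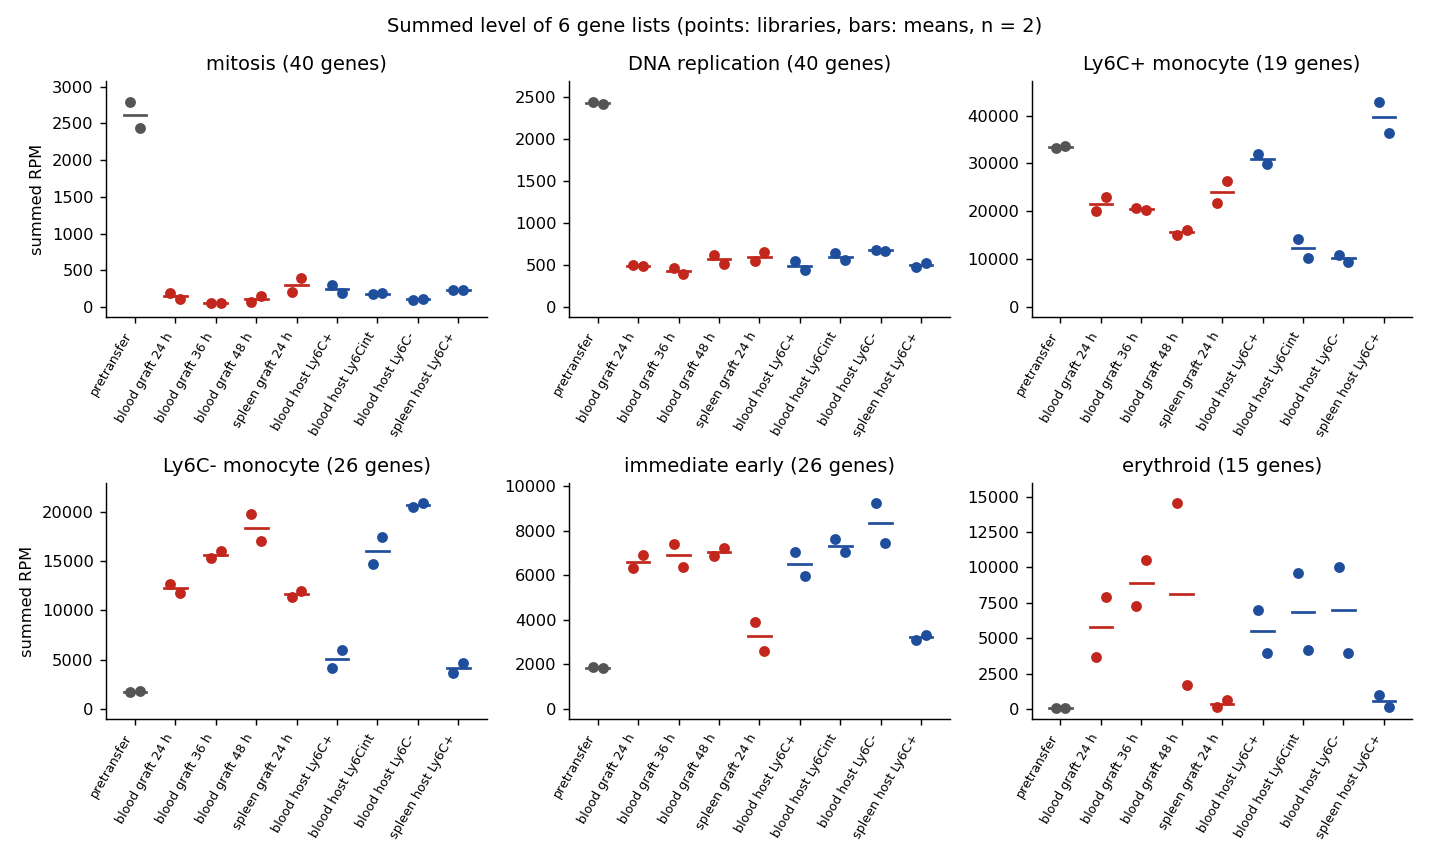
Summed level (y axis, RPM) of 6 gene lists in each library of 9 groups of the transfer, with pretransfer cells in grey, grafts in red and host monocytes in blue, points for libraries and bars for means of 2. Mitosis and DNA replication are highest in the pretransfer libraries of the groups shown, and the erythroid list is higher in blood than in pretransfer libraries whether the cells were grafted or of the host.

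Against host Ly6C+ monocytes of the same blood, which shared tissue and preparation with the grafts, 1 gene of division passed the test and most Ly6C- genes did. In this contrast 191 genes were higher in the grafts (1.59%) and 699 lower (5.81%), against 54 and 800 with the 4 libraries fitted alone. Of the 26 Ly6C- genes 20 were higher and 0 lower, with a median log2 ratio of 1.95. Nr4a1 was at 488 and 702 RPM in host cells against 977 and 1040 RPM in grafts (log2 ratio 0.78, adjusted p = 0.0494), Ace at 428 and 667 RPM against 1703 and 1320 RPM (log2 ratio 1.49, adjusted p = 0.000336) and Cd300e at 9.05 and 28.9 RPM against 265 and 150 RPM (log2 ratio 3.53, adjusted p = 2.38e-05). Cebpb, at 928 and 1403 RPM in host cells, was below both grafts (log2 ratio 0.84, adjusted p = 0.0127), and Cebpa, at 341 and 290 RPM, was above them (log2 ratio -1.91, adjusted p = 0.00709). For Ly6C+ genes the count was 6 lower of 19, with Ly6c2 at 2129 and 2357 RPM in the host (log2 ratio -1.86, adjusted p = 0.014) and Ccr2 at 2104 and 1541 RPM (log2 ratio -2.60, adjusted p = 0.0017). Of the division genes, 1 of 40 mitosis genes and 0 of 40 replication genes were lower, which at this depth does not show equal levels. Immediate early genes, 1 higher of 25, and erythroid genes, 0 of 11, differed at few members or none by this test, whereas heat shock genes were higher at 4 of 14. Interferon genes were lower at 8 of 40. For blood graft 24 h against blood host Ly6C+ the count of 890 genes fell to 179 without host A and to 271 without host B.

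The blood and spleen grafts of 24 h, both descended from transferred marrow monocytes, were compared directly. Blood grafts were higher at 69 genes (0.573%) and lower at 483 (4.01%). None of the 26 Ly6C- and none of the 19 Ly6C+ genes passed in this contrast, with median log2 ratios of 0.12 and -0.43, and Nr4a1 at 1173 and 760 RPM in spleen differed from blood by a log2 ratio of 0.09 (adjusted p = 0.912). Immediate early genes were higher in blood at 8 of 25. Jun, at 80.2 and 51.2 RPM in spleen grafts, was lower there than in blood (log2 ratio 2.84, adjusted p = 2.64e-05). The host cells showed the same order for the list, 5989 to 9233 RPM in 6 blood libraries and 3115 to 4502 RPM in 6 spleen libraries, and tissue cannot be told apart from ficoll and ACK preparation. Blood grafts were lower at 4 of 40 mitosis genes, at 6 of 19 T and NK cell genes and at 4 of 15 tissue macrophage genes. The T and NK cell list summed to 65.1 and 96.7 RPM in blood grafts and to 379 and 299 RPM in spleen grafts. These calls rest on the shared spread: with the 4 libraries alone limma called 0 of 9262 genes, 939 of them at an unadjusted p below 0.05, edgeR called 309, and the count was 173 without spleen C and 905 without blood graft AC.

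Independent libraries of unmanipulated mice showed how the genes that moved after transfer differ in the steady state. Of 11837 genes tested there, blood Ly6C+ cells were higher than marrow Ly6C+ cells at 909 (7.68%) and lower at 1947 (16.4%), and blood Ly6C- cells were higher than blood Ly6C+ cells at 1198 (10.1%) and lower at 1101 (9.3%). Among the 11285 genes tested in both tables, 358 rose and 1238 fell after transfer. Of the 358 risen, 212 were higher in blood than in marrow Ly6C+ cells (59.2% of the risen and 23.5% of the steady-state list), and 230 were higher in Ly6C- than in Ly6C+ blood cells (64.2% and 19.4%). Of the 1238 fallen, 493 were lower in blood than in marrow (39.8% and 26.4%) and 248 lower in Ly6C- than in Ly6C+ blood cells (20.03% and 22.6%). Genes called in the opposite direction numbered 6 and 3 of the risen and 27 and 52 of the fallen. The 2 steady-state contrasts share the blood Ly6C+ libraries, and none of these libraries entered the transfer comparison. Of the 100 genes with the largest fall from marrow to blood, 91 fell after transfer and 0 rose, and of the 100 with the largest excess in Ly6C- cells, 59 rose and 0 fell. Of the 100 highest in blood over marrow 49 rose, 1 fell and 50 did neither, and of the 100 lowest in Ly6C- cells 40 fell, 0 rose and 60 did neither.

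By list, the marrow to blood contrast was lower at 40 of 40 mitosis and 39 of 40 replication genes. The contrast of blood types was higher at 26 of 26 Ly6C- genes. These lists were chosen with earlier results of these data known, so the counts by list are not independent support for the transfer result. Of interferon genes, 7 of which fell after transfer, 19 of 40 were higher in steady-state blood than marrow and 0 lower, while 27 of 40 were lower in Ly6C- than in Ly6C+ cells. Cxcl10, absent from both grafts, was lower in Ly6C- cells by a log2 ratio of -4.55 (adjusted p = 2.6e-09) and did not pass between blood and marrow (log2 ratio 0.92, adjusted p = 0.11). Klf4 was lower in blood than marrow Ly6C+ cells (log2 ratio -1.14, adjusted p = 0.002) and higher in Ly6C- cells (log2 ratio 1.36, adjusted p = 0.00042), so that its rise after transfer had the sign of the second contrast. Cebpb was higher in both contrasts, by log2 ratios of 0.64 (adjusted p = 0.021) and 0.61 (adjusted p = 0.035). Hspa1b passed in neither (adjusted p = 0.61 and 0.58), and the globin gene Hba-a1 passed in neither (adjusted p = 0.39 and 0.88), whereas both rose after transfer. Jun was higher in blood than in marrow (log2 ratio 1.11, adjusted p = 0.019) by less than its log2 ratio of 3.44 after transfer, a difference that was not tested.

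**Figure D5:**
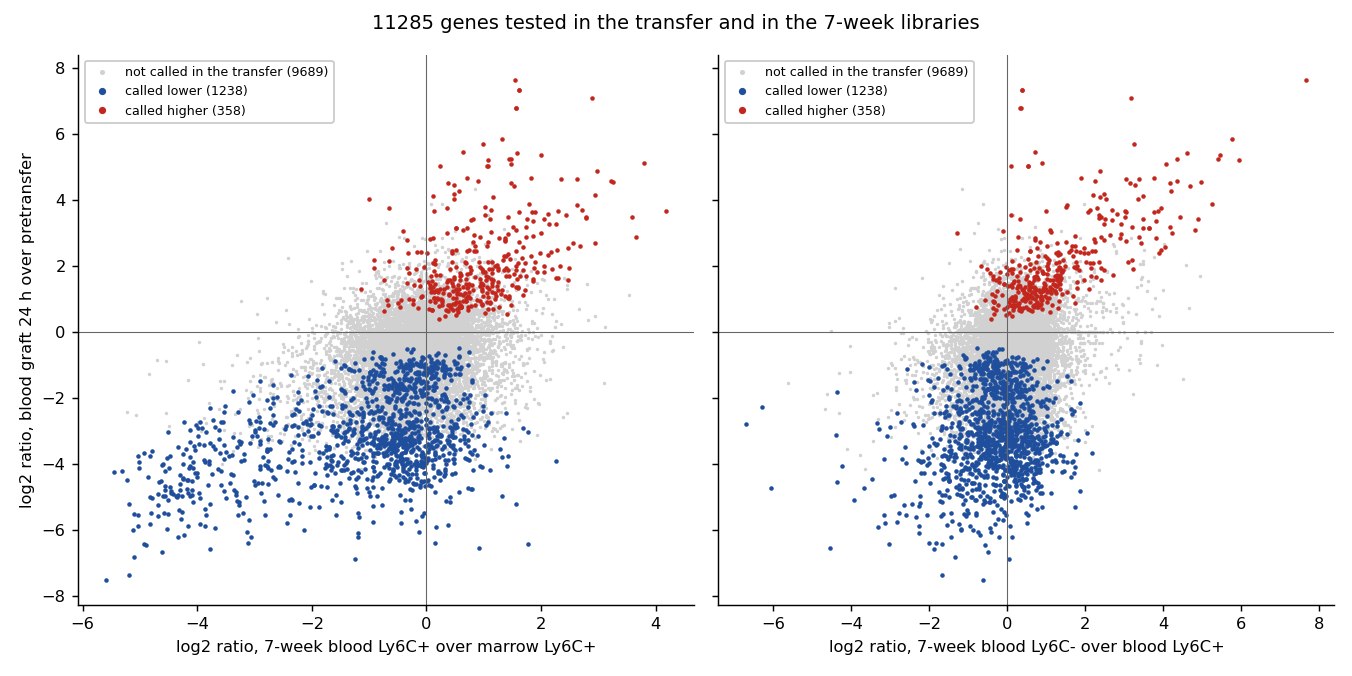
Log2 ratio after transfer (y axis) against the log2 ratio in libraries of 7-week mice (x axis) for 11285 genes, at left blood over marrow Ly6C+ monocytes and at right blood Ly6C- over Ly6C+ monocytes, coloured by the call after transfer. Most of the 358 risen genes lie to the right of 0 in both plots, and 493 of the fallen genes, against 248 at right, were also called lower in the plot of blood over marrow.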

How the data were processed

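RNA was captured on oligo-dT beads, per the labels' protocols, and the submitters' processing notes name bcl2fastq, HISAT 0.1.5, SAMtools, HOMER and mm9. Counting options are not given in the sources used here. Values for the transfer, deposited as whole numbers and treated as a score, proved to be gene counts scaled to a total near 2281979 and rounded. Dividing by the value of 1 read gave whole reads for 100% of values in all 26 libraries, and these were expressed as RPM. The 7-week table holds signal values that the authors deposited, likewise scaled counts, from which reads were recovered within 0.1 read (in 1 library the check is uninformative). Genes with 2 RPM in at least 2 libraries (3 in the 7-week table) were tested with limma 3.58.1 in R 4.3.3 on log2(RPM + 1), with the trend option and 1 mean per group. As the values proved to be counts, edgeR 4.0.16 (quasi-likelihood, TMM) was added as an alternative after the data were seen. Tests were checked on simulated data. Library depth was 502661 to 2281979 reads in the transfer table and 577690 to 3643327 in the 7-week table.

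Named genes are the 12 largest changes in each direction among called, non-overlapping genes of at least 20 RPM, up to 4 called members per list by smallest p, and a fixed set of monocyte genes. Other list members are named to illustrate a count. The members and lists were chosen with earlier results of these data known. Alternatives covered pseudocount, filter, scaling, array weights, the compared groups alone, edgeR and each library left out. The knockout table was not used here. Results on some items are not reported here.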

Additional observations from a re-analysis of the deposited data

Results flagged for a closer look

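At 16 of the 109 named genes the change after transfer differed between blood and spleen, by limma's direct test of the blood against the spleen graft of 24 h. Over all 12032 genes tested, 0.573% were higher in blood and 4.01% lower. Most named genes were picked by their values in the same blood grafts, so the 16 differences may be inflated by that choice. With the 4 libraries alone limma called 0 of 9262 genes. No explanation is given for the 16 differences, and tissue and cell preparation cannot be told apart. Higher in blood were Jun by a log2 ratio of 2.84 (adjusted p = 2.64e-05, mean 484 RPM in blood, 65.7 in spleen and 42.7 before transfer), Junb by 0.959 (adjusted p = 0.00403), Ltf by 3.85 (adjusted p = 0.00399, mean 16.2 RPM in blood and 0 in spleen) and the globin genes Hba-a1 and Hba-a2 by 4.27 each (adjusted p = 0.0235, mean 2448 RPM in blood, 149 in spleen and 13.7 before transfer for Hba-a1). Ltf, a neutrophil granule gene, rests on 19 and 5 reads, and its rise over pretransfer was lost without graft AC, without pretransfer B, with the compared groups alone and with edgeR.

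Lower in blood were Cxcl10 with a log2 ratio of -5.61 (adjusted p = 0.0094, mean 0 RPM in blood, 49.4 in spleen and 91.3 before transfer), Ifit2 with -4.04 (adjusted p = 0.0244) and Cmpk2 with -2.34 (adjusted p = 0.00222, mean 14.8 RPM in blood, 86.1 in spleen and 89.7 before transfer), all 3 interferon-stimulated. Dhrs3, a retinaldehyde reductase, had -4.88 (adjusted p = 0.0094) and Amica1, a junctional adhesion molecule of leukocytes, -5.00 (adjusted p = 0.0227). Among division genes Mcm10 had -2.95 (adjusted p = 0.00709), Uhrf1 -2.33 (adjusted p = 0.038) and Tpx2 -3.45 (adjusted p = 0.00915), each at 0 in blood grafts and at 5.02 to 11.9 RPM on average in spleen grafts. Flt3 had -3.96 (adjusted p = 0.0198), Nip7, a factor of ribosome assembly, -3.32 (adjusted p = 0.0358) and Ndufa4, a respiratory subunit, -1.44 (adjusted p = 0.0256).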

How the results depend on the processing

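Of 109 named genes 73 kept their direction and their side of the threshold under every alternative. Array weights moved blood graft 24 h against pretransfer to 989 genes (238 higher, 751 lower), and the lower count moved with quantile scaling to 765 and with edgeR to 672, the higher count moving to 436 and 448. With 1 library left out, the total ran from 598 to 1742, the higher from 210 to 387 and the lower from 388 to 1364. In blood graft 24 h against spleen graft 24 h (552 genes), quantile scaling gave 310, array weights 31, edgeR 309 and the compared groups alone 0, and leaving out 1 library gave 173 to 905. For blood graft 24 h against blood host Ly6C+ (890), array weights gave 287 and leaving out 1 library 179 to 1114. A lone library left in a group is assumed to vary like the other groups. Fitted on the compared groups alone, 7-week blood Ly6C+ against marrow Ly6C+ gave 1558 genes (2856 otherwise) and 7-week blood Ly6C- against blood Ly6C+ gave 909 (2299 otherwise). Itgam, not called, turned to 0.072 with median-ratio factors, 0.014 with edgeR, 0.073 without graft AC and 0.0029 without pretransfer B (-0.28 without graft B), and Cxcr4 to -0.26 without graft AC (0.64 without graft B). The causes were not tested.

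No paired analysis was possible because the 2 groups of each transfer contrast share only the letter B, and no block was fitted over the other transfer groups. With the replicate block, 7-week blood Ly6C+ against marrow Ly6C+ gave 2901 genes and 7-week blood Ly6C- against blood Ly6C+ gave 2164. At these depths a level under 2.02 RPM in the grafts cannot be told from 0.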
